A study of Mus musculus with 8 samples.

Results

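The promoters of the cytosolic ribosomal protein genes were followed through ATAC-seq of formalin-fixed paraffin-embedded (FFPE) mouse spleen. Members were the protein-coding genes of GENCODE on mm10 whose symbol is Rpl or Rps followed by a digit, together with Rplp0, Rplp1, Rplp2 and Rpsa and without the Rps6k kinases. The rule gave 92 of 21827 protein-coding genes. Of these, 77 encode standard proteins of the ribosome, and 15 are paralogs, processed copies or, in the case of Rps19bp1, a binding partner of Rps19 that is no ribosomal protein. Fau, which encodes a ribosomal protein fused to a ubiquitin-like protein, lies outside the symbol rule and is given separately.

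All samples were nuclei of spleens of C57BL/6J mice that had been fixed in formalin and embedded in paraffin. Tn5 transposase cuts accessible DNA and adds adapters to it, and the tagmented DNA was then purified either with reverse crosslinking (+RV), which frees DNA held by crosslinks, or with that step left out (−RV). The study describes dividing tagmented nuclei between the conditions, so +RV and −RV are portions of shared material. The labels do not say which libraries came from the same portioned sample. For bulk ATAC-seq each condition had a pair of libraries (n = 2) and each library a peak list, while the 2 labelled single-cell libraries of a condition were deposited as 1 pooled set of fragments. The labels do not tie libraries to separate animals, and the study calls its replicates technical, so the spread between libraries is a technical spread. The lists held 32288 to 32736 peaks in −RV and 47755 to 47864 in +RV, with read depth unknown, and the pooled sets held 1592372 (−RV) and 13703580 (+RV) nuclear fragments. Spleen is a mixture of cells, so more cells with an open promoter and a more open promoter in each cell cannot be told apart in the bulk lists. Of fixed marker promoters, those of B cells were called in both −RV libraries for 5 of 6 genes and in both +RV libraries for 6 of 6, those of T cells for 4 of 6 in each condition, those of macrophages for 2 and 3 of 4, those of erythroid cells for 1 and 4 of 4, and 9 markers of liver, muscle, pancreas and neurons for 0 in −RV and 1 in +RV.

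Ribosomal proteins form the large (Rpl) and small (Rps) subunit around the ribosomal RNAs, and cells need them in fixed proportion. Their genes are scattered over the genome and are active in nearly every cell, and in lymphoid tissue a dividing cell makes new ribosomes at a high rate. Many of their mRNAs start with a cytosine and a run of pyrimidines, the terminal oligopyrimidine tract, through which mTOR signalling controls their translation. The 77 standard members sit on 19 chromosomes, with 14 of them on chromosome 7, and 30 of them hold at least 1 of 58 annotated small nucleolar RNA genes on their own strand.

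Promoter sequences were taken from the RefSeq table for GRCm38.p6, which held 66 of the 92 members, 57 of them standard. The sequences below run from 120 bases upstream to 12 bases into the transcript, 5′ to 3′ on the gene strand, and show the start region that the open chromatin surrounds. Capitals mark the pyrimidine run at the start, the ETS core CCGGAAG and the YY1 core AAGATGGC on either strand. The run is marked from its matching C nearest the start, so pyrimidines directly upstream, as in Rpl34 and Rpl35, stay in small letters. The first 6 carry a pyrimidine run with an ETS or YY1 core (the run overlaps the core in Rps15a and Rpl34). Rpl35 carries the run alone in the printed stretch, and has an ETS core further upstream, at −127. Rpl27 and Rplp0, with the largest bulk folds of all members, carry none of these letters here.
Rps10, chr17:27635233-27635364, minus strand: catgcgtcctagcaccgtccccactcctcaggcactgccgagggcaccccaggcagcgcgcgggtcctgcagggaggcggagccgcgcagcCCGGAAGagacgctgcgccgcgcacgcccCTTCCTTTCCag
Rps6, chr4:86857356-86857487, minus strand: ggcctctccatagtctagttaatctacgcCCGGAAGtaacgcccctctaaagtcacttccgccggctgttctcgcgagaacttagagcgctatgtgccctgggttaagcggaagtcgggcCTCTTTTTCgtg
Rps21, chr2:180257259-180257390, plus strand: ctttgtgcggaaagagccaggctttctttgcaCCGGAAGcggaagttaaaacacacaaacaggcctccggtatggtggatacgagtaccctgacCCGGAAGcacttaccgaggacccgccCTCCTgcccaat
Rps18, chr17:33955654-33955785, minus strand: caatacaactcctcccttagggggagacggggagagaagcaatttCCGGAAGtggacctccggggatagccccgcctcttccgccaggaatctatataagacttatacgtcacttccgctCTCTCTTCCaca
Rps15a, chr7:118116136-118116267, minus strand: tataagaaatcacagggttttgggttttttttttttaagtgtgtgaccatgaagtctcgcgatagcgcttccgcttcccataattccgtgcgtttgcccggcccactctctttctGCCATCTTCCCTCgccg
Rpl34, chr3:130730326-130730457, minus strand: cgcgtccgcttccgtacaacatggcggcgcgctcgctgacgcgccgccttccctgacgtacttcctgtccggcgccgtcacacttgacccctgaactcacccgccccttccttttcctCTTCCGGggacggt
Rpl35, chr2:39005120-39005251, minus strand: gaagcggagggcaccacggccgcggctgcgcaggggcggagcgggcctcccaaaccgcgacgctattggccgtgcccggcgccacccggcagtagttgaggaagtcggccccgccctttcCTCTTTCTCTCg
Rpl27, chr11:101442125-101442256, plus strand: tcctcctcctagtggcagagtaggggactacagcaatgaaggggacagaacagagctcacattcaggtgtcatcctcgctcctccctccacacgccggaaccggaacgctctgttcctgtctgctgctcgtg
Rplp0, chr5:115559347-115559478, plus strand: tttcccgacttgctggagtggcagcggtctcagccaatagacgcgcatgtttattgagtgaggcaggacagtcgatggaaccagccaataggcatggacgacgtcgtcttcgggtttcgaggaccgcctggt

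Within 300 bases (250 upstream, 50 downstream), a C followed by at least 4 pyrimidines began at or within 5 bp of the RefSeq start in 25 of 57 standard members (43.9%), beside 18.8% of 16514 protein-coding promoters. Only 21 of the 57 RefSeq starts lay within 5 bp of a GENCODE TSS, so this share holds for the RefSeq starts alone. A run of at least 8 pyrimidines, a length chosen after the sequences were seen, stood there in 31.6% of them and in 4.37% of all promoters. The ETS core, on either strand, was in 23 of 57 (40.4%) beside 12.4% of all promoters. The YY1 core was in 4 of 57 (7.02%) beside 3.28%, and the GC box GGGCGG in 61.4% beside 48.4%. The CCAAT box (CCAAT) was in 31.6% beside 38.5%, the TATA box (TATAAA) in 8.77% beside 12.9%, and the E-box (CACGTG) in 8.77% beside 8.07%. The median GC content was 58% in the standard members and 57% in all promoters. These matches describe letters and were not tested.

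The bulk libraries showed open promoters at nearly every standard ribosomal protein gene. A promoter was the window from 1000 bp upstream to 200 bp downstream of each TSS, and a promoter was called in a condition if each of its libraries had a peak overlapping that window. Of the 92 members, 79 were called in −RV and 80 in +RV, where 47.7% and 53.6% of all 21827 genes were called. Of the 77 standard members, 75 and 76 were called. The number with a peak was 79 and 80 in the −RV libraries and 80 and 80 in the +RV libraries, which did not separate the conditions (exact permutation p = 1 over 2 against 2 libraries). No member was called in both +RV libraries while lacking a peak in both −RV libraries, a pattern found in 760 genes (3.48%). The opposite pattern, found in 3 genes (0.0137%), held no member either.

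Among standard members, Rps25 had no peak in any library and Rpl35 had none in 1 library. Rps25 (chr9:44407139-44410427, plus strand), a small subunit protein used by viral and some cellular mRNAs that start translation internally, was absent from all 4 lists although its promoter, which also covers a TSS of Trappc4, held 28 −RV and 257 +RV single-cell fragments. These were 17.6 and 18.8 per 1000000 nuclear fragments (CPM). The nearest listed peak lay 10441 to 10675 bp from its TSS. Between the neighbouring peaks the numbers in the deposited peak names skipped 10, 10, 10 and 11 entries, out of 897 to 1116 skipped numbers per list, and for its single-cell data the study describes removal of blacklisted regions after peak calling. Whether the Rps25 peak was among the removed ones was not tested. Rps19bp1 also had no peak in any list, with 3 to 4 skipped numbers between its neighbouring peaks and 6 and 99 single-cell fragments.

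Rpl35, a large subunit protein near the exit of the peptide tunnel (chr2:39001580-39005624, minus strand), lacked a peak in −RV replicate 1 alone. Its GENCODE TSS lies 493 bp upstream of the RefSeq start printed above, and the nearest peak began 229 bp from the GENCODE TSS in −RV replicate 1, against 172 bp in −RV replicate 2 and 162 and 129 bp in the +RV libraries. The window ended at 200 bp, so a difference of peak edge decided the call. With a window of 500 bp on each side, all 4 libraries had the Rpl35 peak and 80 members were called in both conditions.

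The 15 members outside the standard set divided into 4 with a listed peak and 11 without one. Rpl22l1, Rps27l, Rpl36al and Rpl7l1, paralogs used in many tissues, had a peak in all 4 libraries. Rpl22l1, a paralog of Rpl22, had folds of 8.93 and 9.24 in −RV and 9.29 and 9.28 in +RV, and its promoter held 15.1 CPM in −RV and 18.2 in +RV. Rpl36al held 18.2 and 18.6 CPM in a window that also covers a TSS of Mgat2. Rps27l held 10.05 and 11.8 CPM, and Rpl7l1 held 13.2 and 12.99. The median of the standard set was 12.6 CPM in −RV and 13.4 in +RV, so Rpl22l1 and Rpl36al were above it in both sets, Rps27l below it in both, and Rpl7l1 above it in −RV and below it in +RV.

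The other 11 had no peak in any library, among them Rps19bp1, whose level of 4.58 CPM per kb was above that of Rpl36 (4.23) with a peak in all 4. Rpl10l and Rpl39l, which stand in for Rpl10 and Rpl39 in the testis, held 0 −RV fragments and 5 and 1 +RV fragments, so their −RV level was at most 1.88 CPM (the limit that a count of 0 allows). Rpl3l, the striated muscle form of Rpl3, held 5 and 20 fragments, with the nearest peak 3419 to 3553 bp away. The copies Rpl10-ps3, Rpl9-ps1, Rpl9-ps6, Rpl36a-ps1, Rpl36-ps4, Rps12-ps3 and Rps27rt held 0 or 1 fragment in −RV and 1 to 9 in +RV. Among these 11 genes the median was 6 +RV fragments, against 184 in the standard members, while the parent genes Rpl10 (36 and 268 fragments), Rpl3 (36 and 234) and Rpl39 (16 and 139) were open. Copies share transcribed sequence with their parents, and placement of reads between them is uncertain.

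The height of the promoter peaks differed among members more than between conditions. Folds are the caller's pile-up at the summit over local background, and the highest-fold peak in the window was used for the 79 members with a peak in all 4 libraries. The lowest, median and highest fold were 3.97, 7.93 and 11.3 in −RV replicate 1, and 3.72, 7.86 and 11.9 in −RV replicate 2. They were 3.84, 8.24 and 12.4 in +RV replicate 1, and 4.08, 8.18 and 12.8 in +RV replicate 2. The medians of the +RV libraries were above those of the −RV libraries by 0.32 (8.21 ± 0.0396 against 7.89 ± 0.0560, SD, n = 2 each, exact permutation p = 0.333, the smallest this design allows). Within a condition, the median member differed between replicates by 0.11 (−RV) and 0.074 (+RV) on the log2 scale, beside 0.12 between the condition means.

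**Figure D1:**
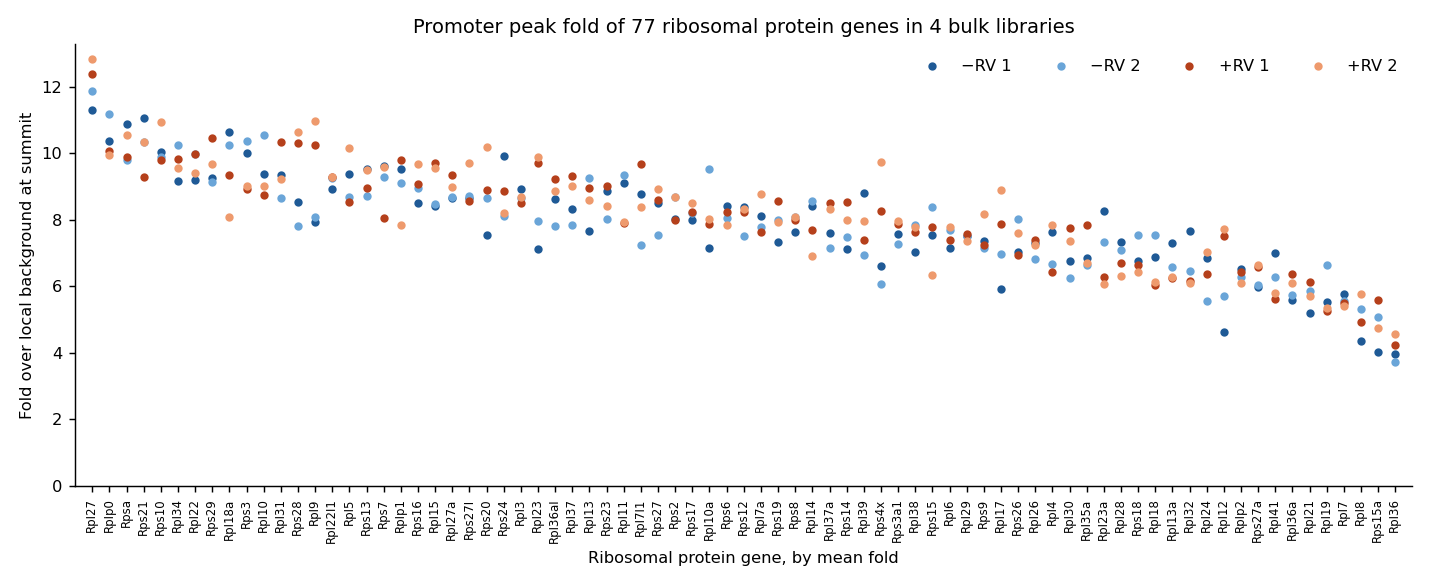
Fold over local background (vertical axis, linear) of the best promoter peak in each of the 4 bulk libraries (coloured points, no error bars) for 77 ribosomal protein genes ordered by mean fold. The order runs from Rpl27, at 11.3 to 12.8, down to Rpl36, at 3.72 to 4.56, with both +RV points above both −RV points in 24 genes.

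Rpl27, a large subunit protein (chr11:101442298-101445529, plus strand), had the highest folds, 11.3 and 11.9 in −RV and 12.4 and 12.8 in +RV. The conditions did not overlap for Rpl27. Rplp0, the base of the stalk that recruits elongation factors, followed with 10.4 and 11.2 in −RV and 10.1 and 9.94 in +RV, and there the +RV libraries were the lower ones. Rpsa, a small subunit protein that also serves as a laminin receptor, had 10.9 and 9.80 in −RV and 9.90 and 10.5 in +RV, with overlap. Rplp1, which binds Rplp0 in the stalk, had 9.52 and 9.09 in −RV and 9.81 and 7.85 in +RV, while its partner Rplp2 had 6.51 and 6.27 in −RV and 6.42 and 6.10 in +RV. The stalk genes thus spanned much of the range of the whole set.

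At the low end, Rpl36 had folds of 3.97 and 3.72 in −RV and 4.24 and 4.56 in +RV, which did not overlap. Rps15a had 4.03 and 5.06 in −RV and 5.59 and 4.76 in +RV. Low folds did not go with a low single-cell level in each case. Rps15a held 16.96 CPM in −RV and 17.4 in +RV, above the standard median. Its 3 annotated TSSs, however, spread its windows over 2133 bp. In the single window of 1201 bp with the most fragments, Rps15a held 10.98 CPM per kb in −RV and 11.3 in +RV. The standard medians on that scale were 9.93 and 11.1, so Rps15a was close to them. Rpl36 held 4.396 CPM in −RV and 5.77 in +RV. Across the 79 members, mean fold and mean single-cell CPM per kb had a Spearman rho of 0.255, and Pearson's r against the log2 of that level was 0.244, given as a description over genes of the same tissue and windows.

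In both conditions the ribosomal protein peaks stood above those of other genes open in all 4 libraries (10325 genes), by a smaller margin in +RV. The other genes' median fold was 6.95 and 6.77 in −RV and 7.72 and 7.77 in +RV. The ratio of the ribosomal protein median to it was 1.14 and 1.16 in −RV and 1.07 and 1.05 in +RV, and the conditions did not overlap (exact permutation p = 0.333). By gene, the fold was higher in both +RV than in both −RV libraries for 24 of 79 members (30.4%), against 50.2% of all 10404 such genes, and lower for 18 (22.8%), against 12.2%. As examples chosen after the values were seen, the lower group included Rplp0, Rpl10, Rpl11, Rpl13a and Rpl32, and the higher group Rpl27, Rpl12, Rpl15, Rpl36a, Rps4x and Rps29. Peak folds come from each list's own background and depth, so their differences between conditions are differences of the lists.

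Rpl12, a protein at the base of the stalk, had folds of 4.63 and 5.70 in −RV and 7.50 and 7.72 in +RV, with a TSS of Lrsam1 in its window. Rps4x, an X-linked small subunit protein, went from 6.62 and 6.07 to 8.25 and 9.75. Rpl11, which with Rpl5 and 5S rRNA forms a complex that can restrain Mdm2, went from 9.11 and 9.36 down to 7.91 and 7.92. Rpl5, its partner, had 9.39 and 8.68 in −RV and 8.53 and 10.1 in +RV, which overlapped. The X-linked members Rpl10, Rpl36a, Rpl39 and Rps4x together had a median fold of 7.72, beside 8.07 in the 71 autosomal standard members with a peak in all 4 libraries.

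Peaks at ribosomal protein promoters were wider after reverse crosslinking, like those of other genes. Their median width was 745 and 787 bp in −RV and 960 and 1004 bp in +RV, a difference of 216 bp (766 ± 29.7 bp against 982 ± 31.1 bp, SD, n = 2 each, exact permutation p = 0.333). At other genes the median went from 739 and 761 bp to 1037 and 1034 bp. The peak was wider in both +RV than in both −RV libraries for 64 of 79 members (81%), where 79% of all 10404 genes were, and the median ratio of widths was 1.27 in members and 1.33 in all. Relative to other genes, the ribosomal protein median width was 1.01 and 1.03 in −RV and 0.926 and 0.971 in +RV (exact permutation p = 0.333).

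**Figure D2:**
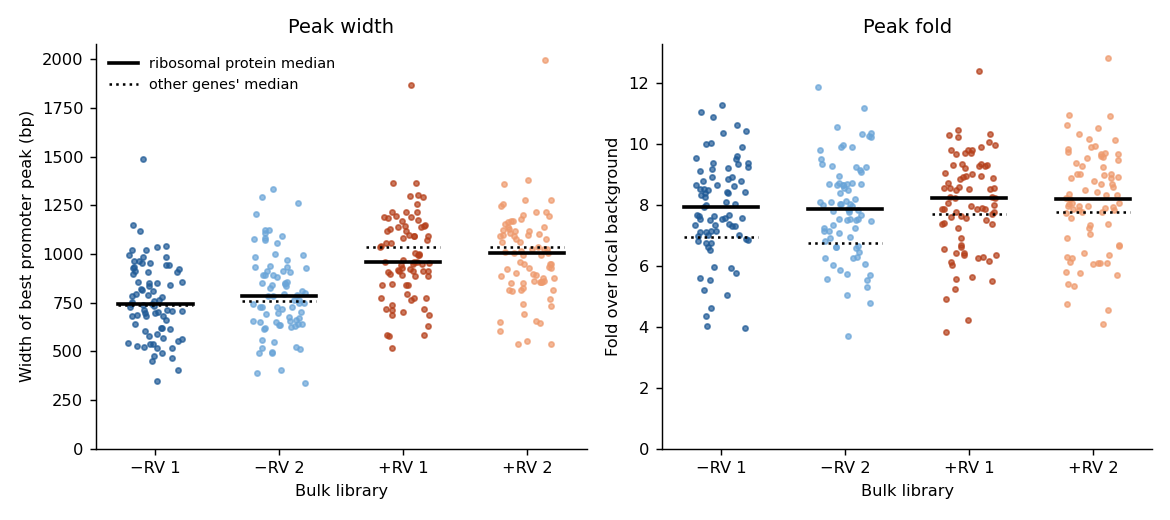
Width in bp (left) and fold over local background (right) of the best promoter peak in the 4 bulk libraries, with 1 point per ribosomal protein gene (79 genes), a solid line at their median and a dotted line at the median of 10325 other genes. Widths move up together from −RV to +RV, and the gap between the solid and dotted lines for fold narrows.

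Rpl7, of the large subunit, had the widest peaks, 1489 and 1332 bp in −RV and 1869 and 1996 bp in +RV. Rps27a, which makes ubiquitin fused to a small subunit protein, had 1147 and 1262 bp in −RV and 1299 and 1280 bp in +RV, with a TSS of Clhc1 in the window. Rpl7l1 had 993 and 1293 bp in −RV and 1194 and 1278 bp in +RV. Among the narrowest were Rpl36 (346, 389, 517 and 555 bp) and Rpl8 (405, 336, 846 and 539 bp), in the order −RV 1, −RV 2, +RV 1, +RV 2. Rpl5 widened the most, from 467 and 670 bp to 1127 and 1035 bp, a ratio of 1.90. Rpsa and Rps14 were the 2 members whose peaks were narrower in both +RV libraries, Rpsa with 1120 and 1205 bp against 1000 and 951 bp, and Rps14 with 953 and 936 bp against 889 and 886 bp. Narrowing of this kind was found in 1.1% of all 10404 genes.

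Ranked by q-value within each list, the median ribosomal protein peak stood at the 88.9th and 89.2nd percentile in −RV and the 92.1st and 91.8th in +RV, where 100 is the strongest peak. Other genes' promoter peaks had medians of 83.8 and 84.0 in −RV and 89.6 and 89.7 in +RV. This rise came with the longer +RV lists. With each list cut to its 32288 strongest peaks, the ribosomal protein median was 88.9 and 89.1 in −RV and 88.3 and 87.9 in +RV, so the direction turned (exact permutation p = 0.333). The median rank was 3594 and 3524 in −RV and 3778 and 3905 in +RV, counted from 1 at the strongest peak. The median of other genes, 83.9 and 83.9 in −RV, was then 84.8 and 84.8 in +RV. Rpl37, of the large subunit and with the best mean rank in +RV, had the 563rd and 586th strongest peak in −RV and 24th and 140th in +RV.

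Single-cell fragments gave a measure of level. By the names of the deposited sets, their barcodes had been selected on unique fragments and on FRiT. The study defines FRiT as the fraction of reads from 1000 bp upstream to 200 bp downstream of TSSs, the promoter window used here. Shares and levels below are those of selected barcodes, and the part of this selection in them was not tested. Fragments were assigned by midpoint, and with 1 pooled set per condition there is no replicate and no test, so intervals are exact, at 95%, and cover counting error only. Ribosomal protein promoters took 1733 fragments in −RV, 0.109% of nuclear fragments (95% interval 0.104 to 0.114%), and 16634 in +RV, 0.121% (0.120 to 0.123%). The share was 1.115 times as high in +RV (1.06 to 1.17), and that of all other protein-coding promoters 1.13 times. Per Tn5 index, the part of a barcode that the transposase adds, the share ran from 0.0738% to 0.140% over 20 indices in −RV and from 0.109% to 0.133% over 20 in +RV, so the ranges overlapped. The same 20 index numbers occur in both sets, 2 whole barcodes were shared, and the labels tie no index to a replicate.

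Of 2406 −RV barcodes, 49.5% held at least 1 ribosomal protein promoter fragment, and of 18620 +RV barcodes 55.0%. With each barcode thinned to 300 nuclear fragments the expected shares were 27.8% and 30.3%, with 0 and 1 barcode left out for being shallower. No barcode held more than 6 such fragments in −RV or 13 in +RV, and 16.0% and 22.1% held 2 or more.

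Standard members ranged widely in level. In −RV the lowest, median and highest were 1.26, 12.6 and 28.3 CPM, and in +RV 3.28, 13.4 and 33.8 CPM. Among the highest, Rps19, mutated in Diamond-Blackfan anaemia, had 25.7 CPM in −RV (18.5 to 34.9) and 25.4 in +RV (22.8 to 28.2). Rpl37 (24.5 and 26.5), Rps12 (28.3 and 22.5) and Rps27a (26.4 and 24.2) were close to it. The −RV intervals of these 4 genes overlap each other, so their order in that set is within counting error.

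The lowest standard members were Rpl35 (1.26 CPM in −RV and 3.28 in +RV), Rps4x (2.51 and 3.87), Rpl36 (4.396 and 5.77), Rpl8 (5.02 and 6.64) and Rpl12 (6.91 and 6.49). The Rpl35 values come from the GENCODE window, which ends before its RefSeq start. Rpl8 is a protein of the large subunit core whose −RV interval of 2.17 to 9.90 CPM overlaps those of Rpl36 and Rpl12. To compare genes per length, levels were also taken in the 1 window of 1201 bp with the most fragments among a gene's TSSs, as CPM per kb. On that scale the median of open members was 10.5 in −RV and 11.1 in +RV, beside 7.84 and 8.93 in other genes with a peak in all 4 libraries. Of 79 open members, 29 stood above the 75th percentile of the 10404 open genes and 3 below the 25th.

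Small subunit genes had a median of 11.1 CPM per kb (31 genes, mean of both sets) and large subunit genes 9.02 (46 genes), with ranges of 2.66 to 22.7 and 1.89 to 21.2. The 30 hosts of small nucleolar RNAs had a median of 10.7 and the 47 other standard members 10.3. The 13 members whose window covers a TSS of another gene, such as Rpl7a (Med22), Rps18 (Vps52) and Rpl4 (Zwilch), had a median of 10.3, and the others 10.4. Standard members with a pyrimidine start had a median of 10.9 CPM per kb (25 genes) and a median fold of 7.83 (the 24 with a peak in all 4 libraries). Those without it had 9.32 CPM per kb (32 genes) and a fold of 8.62 (31 genes). Ranges overlapped in every one of these pairs, and no test was made.

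**Figure D3:**
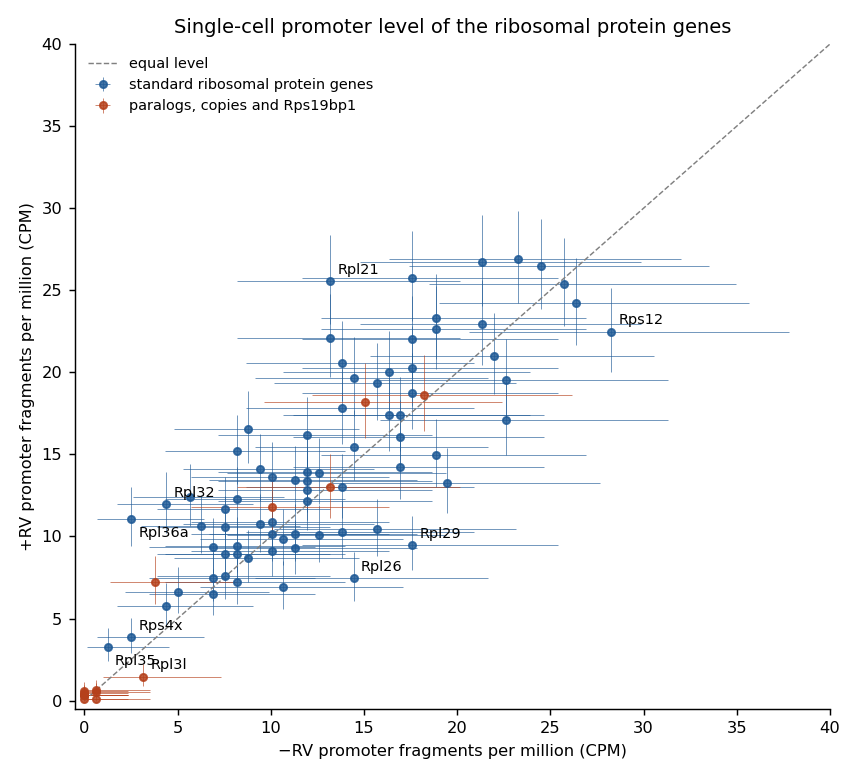
Promoter fragments in CPM in −RV (horizontal) and +RV (vertical) for 75 standard ribosomal protein genes (blue) and the 15 other members (red), with 95% Poisson intervals and a dashed line of equal level. Most genes follow the line, Rpl21 lies above it at 13.2 and 25.5 CPM, and 10 of the red points lie below 4 CPM in both sets.

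Between the conditions, the interval of the ratio included 1 for most ribosomal protein promoters. With a median of 20 −RV fragments per standard member, modest changes in level cannot be seen. The 60 members with a mean of at least 10 CPM had a median log2 ratio of +RV over −RV (pseudocount 1 CPM) of 0.10, and 39 of them (65%) were positive. All 5831 genes above that minimum had a median of 0.15, with 67.6% positive. Past 1.5-fold, 6 of 60 members were higher (10%, beside 13.1% of all genes tested) and 3 were lower (5%, beside 2.02%). With the 95% interval of the ratio also excluding 1, 5 were higher (beside 8.8% of all genes) and 2 lower (beside 1.32%). The sign of the medians depended on fragment length: with fragments of 50 to 100 bp alone they were −0.17 in members and −0.18 in all genes.

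The higher members included Rpl21, Rplp2, Rps2 and Rps14. Rpl21, of the large subunit (chr5:146832890-146837032, plus strand), had 21 −RV and 350 +RV fragments, or 13.2 against 25.5 CPM, with a ratio of 1.94 (1.25 to 3.17). Rplp2, of the stalk, had 8.79 and 16.6 CPM (ratio 1.88, 1.10 to 3.50), while Rplp0 had 12.6 and 10.1 CPM (0.802, 0.500 to 1.35) and Rplp1 19.5 and 13.3 (0.682, 0.464 to 1.03). Rps2, at the mRNA entry of the small subunit, had 8.16 and 15.2 CPM (1.86, 1.06 to 3.55). Rps14, whose human gene lies in the deleted region of the 5q- syndrome, had 13.2 and 22.1 CPM (1.68, 1.08 to 2.75), but its 5 annotated TSSs spread its windows over 4210 bp. At its representative TSS alone the log2 ratio was −0.21. With +RV thinned to the −RV depth, the log2 ratio of Rps2 went from 0.82 to 0.50. In the bulk lists the folds of Rpl21, Rplp2 and Rps2 overlapped between the conditions, and that of Rps14 was higher in both +RV libraries.

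The 2 lower members were Rpl26 and Rpl29. Rpl26, which also binds the mRNA of p53, had 23 −RV and 102 +RV fragments, or 14.4 against 7.44 CPM, with a ratio of 0.515 (0.325 to 0.849). With +RV thinned to the −RV depth its log2 ratio went from −0.87 to −0.33. Rpl29 had 17.6 and 9.49 CPM (0.540, 0.356 to 0.843). In the bulk lists their folds overlapped between the conditions, with 7.30 and 6.81 (−RV) and 7.39 and 7.23 (+RV) for Rpl26, and 7.50 and 7.50 (−RV) and 7.59 and 7.36 (+RV) for Rpl29. Rpl7a was past 1.5-fold lower (15.7 and 10.4 CPM) and Rpl31 past 1.5-fold higher (8.16 and 12.3), with intervals that included 1. Rps24, also among the 5 lowest ratios, had 13.8 and 10.3 CPM (0.745, 0.473 to 1.23).

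Of the 32 members under the minimum, 26 had a fragment in both sets. Rpl36a, Rpl32 and Rpl19, singled out after the values were seen, had intervals of the ratio above 1, and 0 members had one below 1. The share of all genes under the minimum with such intervals was not counted, so these 3 cannot be set against a background. Rpl36a, on the X chromosome, had 4 −RV and 152 +RV fragments, or 2.51 and 11.1 CPM (ratio 4.42, 1.69 to 16.4). Rpl32 had 7 and 164 fragments (2.72, 1.29 to 6.88) and Rpl19 had 9 and 170 (2.19, 1.13 to 4.88). Each rests on fewer than 10 −RV fragments. In the bulk lists the fold of Rpl36a was higher in both +RV libraries (5.59 and 5.74 in −RV, 6.36 and 6.11 in +RV). For Rpl32 (7.67 and 6.46 in −RV, 6.16 and 6.11 in +RV) and Rpl19 (5.53 and 6.63 in −RV, 5.25 and 5.36 in +RV) it was lower in both.

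For the other genes of fixed role, the interval of the ratio included 1. Rpl3, near the peptidyl transferase centre, had 22.6 and 17.1 CPM, Rpl4, which lines the exit tunnel, 10.05 and 9.12, and Rpl10, which joins the large subunit late, 22.6 and 19.6. Rpl5 had 11.3 and 10.1 CPM and Rpl11 had 6.91 and 7.44. Rpl22, needed for T cell development, had 13.8 and 17.8, Rpl38, needed for translation of Hox mRNAs, 10.7 and 6.93, and Rps6, the target of the S6 kinases, 11.9 and 13.9. Rpsa had 13.8 and 20.6 CPM (1.49, 0.965 to 2.42). Fau, whose window covers a TSS of Mrpl49, had 11.9 and 14.2 CPM and a peak in all 4 libraries, with folds of 6.28 to 7.54. It lay within the range of the standard members in each measure.

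Insertions were more concentrated at ribosomal protein TSSs than at other open promoters. Around 1 TSS per gene, 60.2% of the −RV insertions within 1000 bp lay within 200 bp of the TSS at the 79 members, against 48.6% at 10325 other genes, and in +RV 56.0% against 46.5%. The highest point of the profile, smoothed over 51 bp, was 21.4 times the outer 100 bp in −RV and 18.7 times in +RV, against 10.7 and 10.5 times at other genes. It lay 28 bp upstream of the TSS in −RV and 24 bp upstream in +RV. Averaged over the 4 libraries, the bulk summit was within 250 bp of the nearest TSS for 100% of the 79 members. Its median was 41.5 bp upstream, and the share was 89.99% in the other genes. The share was 97.6% in ribosome biogenesis genes and 94.8% in mitochondrial ribosomal protein genes. It was 93.2% in respiratory chain genes and 92.7% in translation factors. In single libraries, the summits of Rpl4 (+RV replicate 1) and Rpl32 (−RV replicate 2) lay further than 250 bp away. All are descriptions over genes, and the insertion values come from 1 pooled set per condition.

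**Figure D4:**
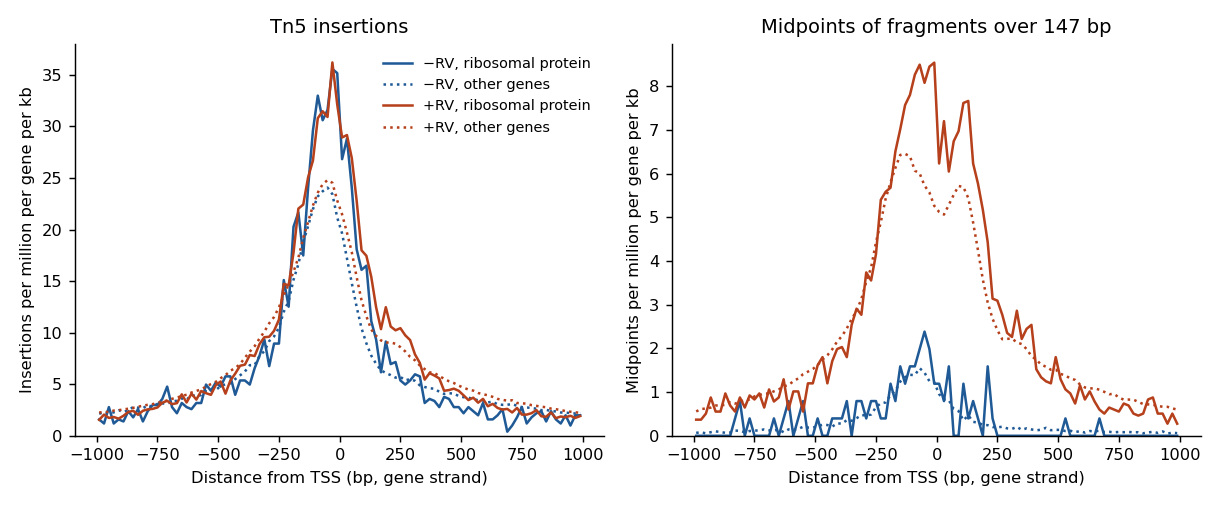
Tn5 insertions (left) and midpoints of fragments longer than a nucleosome core (right) per 1000000 nuclear fragments, per gene and per kb, in bins of 20 bp against distance from the TSS in bp, for 79 ribosomal protein genes (solid) and 10325 other genes with a peak in all 4 libraries (dotted), in −RV (blue) and +RV (red). The solid insertion peak is taller and narrower than the dotted one in both sets, and long fragments are seen mainly in +RV.

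Fragments at ribosomal protein promoters were longer in +RV. Fragments longer than the DNA of a nucleosome core were 88 of 1733 in −RV (5.08%, 4.09 to 6.22%) and 5064 of 16634 in +RV (30.4%, 29.7 to 31.1%). At other promoters they were 4.83% and 29.3%. Ribosomal protein promoters had a median fragment length of 75 bp in −RV against 98 bp in +RV, and the others 75 against 95 bp. The study cut its first reads to 75 bp, and the part of this step in the lengths was not tested.

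Within each length class, the share that lay at ribosomal protein promoters moved in different directions. Of fragments up to 50 bp, 0.0784% lay there in −RV and 0.119% in +RV, which gives 1.51 (1.35 to 1.71) for +RV over −RV. Of those over 50 and up to 100 bp the share was 0.104% and 0.0939% (0.904, 0.846 to 0.968), of those over 100 bp and up to a nucleosome core 0.217% and 0.146% (0.670, 0.594 to 0.759), and of longer ones 0.241% and 0.181% (0.753, 0.610 to 0.941). Other promoters had ratios of 1.54, 0.935, 0.765 and 0.777 in the same classes. For the third class the intervals of the ratios overlapped at their edges (0.594 to 0.759 against 0.756 to 0.775). The higher overall share in +RV thus came with lower shares in 3 of 4 classes and a shift of fragments towards the longer classes, at these promoters and at all others.

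**Figure D5:**
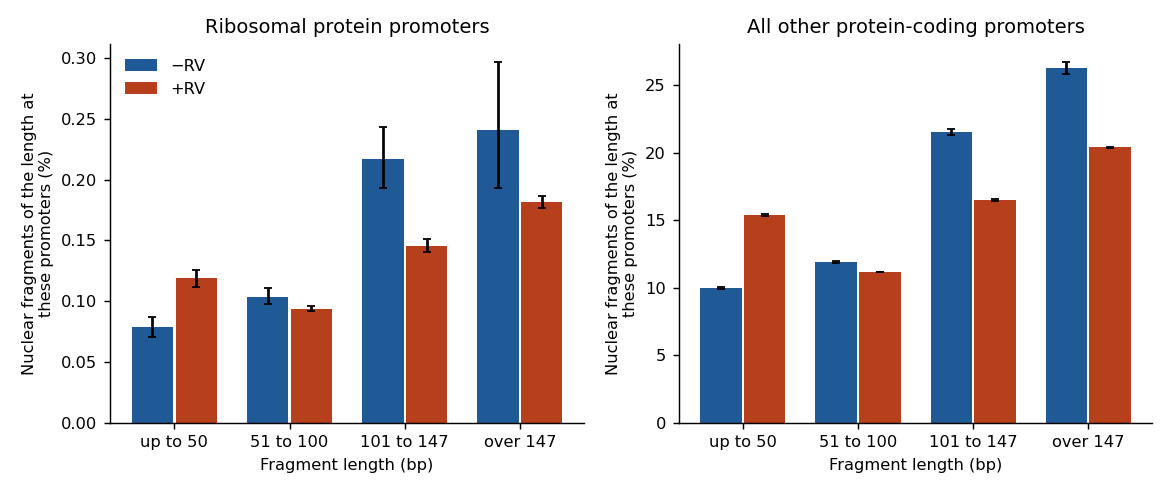
Share of the nuclear fragments of each length class (horizontal, in bp) that lay at ribosomal protein promoters (left) and at all other protein-coding promoters (right), in percent from 0, with 95% exact binomial intervals. At ribosomal protein promoters the +RV bar is higher for fragments up to 50 bp (0.119% against 0.0784%) and lower in the other classes, and the right panel has the same order.

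Other gene groups of translation and of the mitochondria were set beside the ribosomal proteins. Promoters were called in both −RV libraries for 77 of 78 mitochondrial ribosomal protein genes, 73 of 77 respiratory chain genes, 55 of 62 translation factors and 41 of 41 ribosome biogenesis genes, and in both +RV libraries for 77, 74, 55 and 41. Their median bulk folds over the 4 libraries were 7.81, 8.21, 8.02 and 8.16, beside 8.12 for the ribosomal proteins and 7.32 for all genes. The median level of open promoters, as a percentile of all open genes, was 63.7 for the ribosomal proteins, 44.6 for the mitochondrial ribosomal proteins, 56.9 for the respiratory chain, 64.2 for the translation factors and 53.5 for ribosome biogenesis. Median log2 ratios of +RV over −RV were 0.12, 0.067, 0.15 and 0.059 in these lists, over 36, 50, 39 and 25 genes of at least 10 CPM. Of these, 3, 5, 5 and 1 were past 1.5-fold higher (13.1% of all genes) and 1, 4, 2 and 1 lower (2.02% of all genes).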

How the data were processed

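The 4 bulk peak lists and 2 pooled fragment sets on mm10 were used. The bulk lists have the MACS2 column layout, but the sources used here do not state how they were called. For the single-cell data the study describes MACS2 peak calling and blacklist removal. The deposited score, fold (a ratio over local background), −log10 p and −log10 q belong to a peak within its list. The single-cell files the authors deposited hold a position and a cell barcode per fragment. Of fragments, 0.577% (−RV) and 0.670% (+RV) repeated another's position and barcode and were kept. Bowtie2 2.4, SAMtools 1.15, SEACR 1.3 and Picard 1.119 are named in the submitters' processing notes. Single-cell reads were aligned with BWA and sorted with SAMtools, with a minimum read length meant to limit multiple mapping. For bulk reads the sources used here state no such step.

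Python 3.11.15, numpy 2.4.6 and scipy 1.17.1 were used. TSSs came from the basic GENCODE vM21 set on the main chromosomes, and a peak counted at 1 bp of overlap. The representative TSS had the best transcript support, then APPRIS rank, then length. Differences between libraries were tested by exact permutation (two-sided, smallest possible p 0.333). Scripts were tested on simulated data. CPM are fragments per 1000000 nuclear fragments. Log2 ratios with a pseudocount understate changes of low genes. A count of 0 was given a limit of 3 counts.

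Members and gene lists were chosen with earlier results of these data known. Named genes were the nonstandard members, those lacking a peak, the 5 highest and lowest levels and ratios, the 3 highest and lowest folds and widths, and genes of fixed role. Length classes and levels per kb were set after values were seen. Promoters on chromosome 18 and those missing from the table were not printed. Some genes are counted in the totals but not reported here by name or plotted by name. Alternatives are given in the closing section.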

Additional observations from a re-analysis of the deposited data

How the results depend on the processing

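Alternatives for the bulk lists were a −log10 q of at least 5, the same number of best-ranked peaks, the summit inside the window, 500 bp on each side, 1 representative TSS and leaving out each library. The first 3 selected the same peaks for the medians of fold and width, which they therefore could not move. Under the others the median fold, width and rank kept their direction, and under all of them the counts called in both libraries of a condition moved by at most 1. The rank percentile depended on list length, and its difference reversed to −0.87 points with the same number of peaks per list. The difference of 0.5 between conditions in members with a peak per library became 0 with the summit inside the window, and 0 with 500 bp on each side. Leaving out 1 library, it ran from 0 (without −RV replicate 1) to 1. With a replicate block (sign flips within replicate numbers, smallest p 0.5), the differences were 0.5 for the number of members (exact p = 1), 0.32 for fold, 216 bp for width and 2.91 points for rank percentile (exact p = 0.5 each). Deviations of log2 fold of same-numbered libraries correlated at −0.0075 over 10404 genes. That value cannot tell whether such libraries shared tagmented material, and the labels do not say. The block changed no call.

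For single cells, the share at ribosomal protein promoters was 0.101% (−RV) and 0.110% (+RV) with 1 representative TSS, 0.115% (+RV) with barcodes of at least 1000 fragments, 0.118% (+RV) with +RV thinned to the −RV depth, and 0.103% (−RV) and 0.0943% (+RV) with fragments of 50 to 100 bp, where the order of the conditions turned. The long-fragment share in thinned +RV was 31.6%. The median log2 ratio stayed between 0.032 and 0.16 under the other alternatives and reversed to −0.17 with fragments of 50 to 100 bp, where the median of all genes was −0.18. The log2 ratio of Rps14 reversed to −0.21 at its representative TSS and was 0.068 with fragments of 50 to 100 bp, while thinning gave −0.33 for Rpl26 and 0.50 for Rps2. No member reached a mean of 30 CPM, so that minimum gave no value. The −RV depth limits most: a standard member rests on a median of 20 fragments there.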
